A study of Mus musculus with 6 samples.

Results

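A set of 9 chemokine receptor genes other than Ccr7 was followed in splenic γδ T cells, which recognise antigen through a receptor of paired γ and δ chains: Ccr2, Ccr4, Ccr8, Ccr9, Cxcr3, Cxcr4, Cxcr5, Cxcr6 and Cx3cr1. They were taken by gene symbol from the deposited count table, and all 9 had a row among its 19390 genes. The cells were sorted by flow cytometry from spleen, at a mouse age of 6 weeks, and their RNA was sequenced. The 3 WT-labelled libraries were taken as Usf3 f/f mice, with both Usf3 alleles floxed, and the 3 KO-labelled libraries as Usf3 f/f; CD2-cre mice. CD2-cre is a transgene in which CD2 control elements drive the recombinase Cre in lymphocytes. All groups thus share the floxed alleles. Only the KO-labelled mice carry CD2-cre, so the transgene and the deletion cannot be told apart, and the cre acts in lymphocytes other than γδ T cells as well. The labels do not say whether each library came from a separate animal, so p-values measure the spread between these libraries, which may be technical.

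Chemokine receptors are G protein-coupled receptors on the surface of leukocytes. They bind chemokines, small secreted proteins laid down in gradients by tissues, and signal mainly through G proteins of the Gi class to direct cell migration. In γδ T cells they are known for setting which tissue a cell enters: CCR2 and CXCR3 guide cells to inflamed sites, CXCR6 to sites rich in CXCL16 such as the liver, CCR9 to the gut and thymus, CXCR5 to B cell follicles, CXCR4 to CXCL12-rich niches such as the bone marrow, and CCR4 and CCR8 to skin.

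In these libraries Ccr2, Cxcr6 and Cxcr3 were the abundant receptor transcripts, and Ccr9, Cxcr5, Cx3cr1 and Ccr8 were near the lower limit of the counts. Cxcr3 fell by 35.1% in KO-labelled libraries, Ccr8 rose 3.25-fold from a very low level, and Cxcr6 and Ccr2 rose by 9.18% and 8.04%. The Ccr2 call held in only 9 of 18 alternative analyses, and its KO replicate 3 lay within the WT range. Ccr4, Cxcr4, Cxcr5 and Cx3cr1 did not pass the test. Ccr9 had too few counts to be tested.

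The sequences just before the start of the 4 genes that passed are shown because these genes moved in opposite directions. They are the 250 bases before the RefSeq start, in the build GRCm38.p6, 5′ to 3′ along the gene's strand. Capitals mark matches to CANNTG, the general E-box read by basic helix-loop-helix proteins, the class to which the product of Usf3 belongs. Cxcr3 is at chrX:101734148-101734397 on the minus strand, Ccr8 at chr9:120091883-120092132 on the plus strand, Cxcr6 at chr9:123806227-123806476 on the plus strand and Ccr2 at chr9:124101933-124102182 on the plus strand.
Cxcr3: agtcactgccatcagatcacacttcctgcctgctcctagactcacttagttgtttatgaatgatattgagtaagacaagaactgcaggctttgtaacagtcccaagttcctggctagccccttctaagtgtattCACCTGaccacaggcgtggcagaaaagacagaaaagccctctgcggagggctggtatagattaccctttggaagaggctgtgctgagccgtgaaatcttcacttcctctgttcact
Ccr8: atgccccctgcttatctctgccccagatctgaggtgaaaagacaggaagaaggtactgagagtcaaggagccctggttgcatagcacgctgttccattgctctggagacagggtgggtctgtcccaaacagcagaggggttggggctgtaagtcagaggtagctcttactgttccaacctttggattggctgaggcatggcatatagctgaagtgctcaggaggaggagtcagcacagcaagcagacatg
Cxcr6: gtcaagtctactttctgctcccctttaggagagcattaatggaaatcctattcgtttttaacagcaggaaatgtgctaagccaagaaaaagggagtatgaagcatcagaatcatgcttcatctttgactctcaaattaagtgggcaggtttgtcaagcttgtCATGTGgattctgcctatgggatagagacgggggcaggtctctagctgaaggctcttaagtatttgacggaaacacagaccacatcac
Ccr2: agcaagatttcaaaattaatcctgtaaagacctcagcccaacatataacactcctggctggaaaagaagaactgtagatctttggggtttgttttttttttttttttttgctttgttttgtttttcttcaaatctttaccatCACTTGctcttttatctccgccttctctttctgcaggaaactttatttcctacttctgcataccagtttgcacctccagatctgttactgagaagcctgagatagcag

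Of the 9 genes, 8 matched the RefSeq promoter table. Cxcr3 held 1 CANNTG match, 116 bases before the start, Cxcr6 held 1 at 88 bases and Ccr2 held 1 at 108 bases. The Ccr8 window held none. CANNTG, which reads the same on both strands, was present in 66.2% of all 32851 promoter windows of this length. CACGTG, the E-box form bound by USF and MYC family factors and itself a case of CANNTG, was present in 6.02% of windows and in none of the 8 receptor windows. On either strand, AGGTGTGA, an element bound by the T-box factors T-bet and Eomes, was present in 1.12% of windows and TTCNNNGAA, a site form bound by STAT factors, in 7.02%. Neither was present in the 8 receptor windows. A match describes these letters only, and its absence says only that they are not in this window.

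Levels were compared between genes as FPKM, the deposited value per gene length and library total. Ccr2, the receptor for CCL2 and related chemokines, stood at 158 ± 4.73 FPKM in WT-labelled and 172 ± 10.6 in KO-labelled libraries (SD, n = 3 each), rank 370 of 19390 genes by mean FPKM. Cxcr6, the receptor for the transmembrane chemokine CXCL16, stood at 108 ± 3.18 and 119 ± 2.88 FPKM, rank 590. Cxcr3, the receptor for the interferon-induced chemokines CXCL9 and CXCL10, stood at 44.3 ± 1.78 and 28.9 ± 0.565 FPKM, rank 1973. These 3 genes were thus far above the other 6.

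Cxcr4, the receptor for CXCL12, was lower, at 6.22 ± 0.202 FPKM in WT-labelled and 6.11 ± 0.389 in KO-labelled libraries. Ccr4, the receptor for CCL17 and CCL22, was at 2.30 ± 0.0905 and 2.23 ± 0.0592 FPKM. Ccr8, the receptor for CCL1 and, in mice, CCL8, was at 0.442 ± 0.154 and 1.45 ± 0.142 FPKM. The fractalkine receptor gene Cx3cr1 was at 0.219 ± 0.0505 and 0.342 ± 0.110 FPKM, and the CXCL13 receptor gene Cxcr5 at 0.122 ± 0.0238 and 0.119 ± 0.0205 FPKM. Ccr9, the CCL25 receptor gene, was listed at 0 in WT replicates 1 and 2 and between 0.00651 and 0.0322 FPKM in the other 4 libraries. The order of the 9 genes was the same under both labels, and no 2 neighbours in that order had overlapping ranges within a label.

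**Figure D1:**
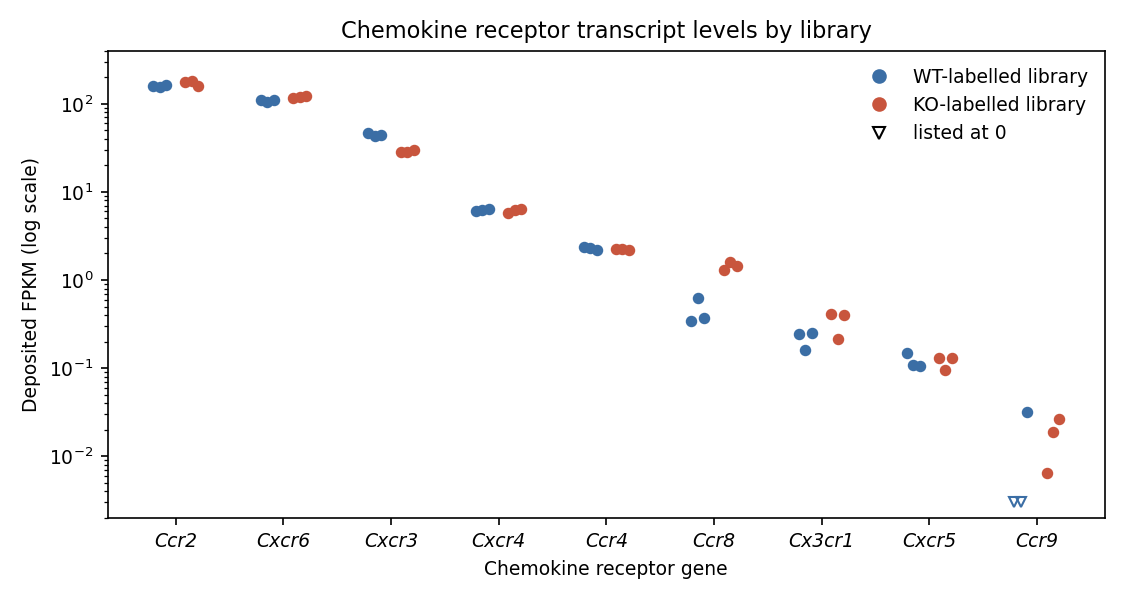
Deposited FPKM (log axis) of the 9 receptor genes, ordered by mean level, with 1 point per library and both labels side by side. Ccr2, Cxcr6 and Cxcr3 sit above 28 FPKM in all 6 libraries, Ccr9 is listed at 0 in 2 WT-labelled libraries, and the labels separate at Cxcr3, Cxcr6 and Ccr8.

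Within the summed FPKM of the 9 genes, Cxcr3 took 13.4% to 14.3% in WT-labelled libraries and 8.45% to 9.21% in KO-labelled ones. Cxcr6 took 33.7% to 33.9% and 34.9% to 37.7%. Ccr2 took 48.9% to 49.9% in WT-labelled libraries and 49.8% to 53.4% in KO-labelled ones, with KO replicate 3 among the WT-labelled values. The Cxcr3 and Cxcr6 shares did not overlap between labels. The shares of a library sum to a fixed whole, so a fall in the Cxcr3 share raises the others. The higher Cxcr6 and Ccr2 shares are thus no separate support for a rise of these genes.

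The library-wide facts that bear on these values are few. Totals ran from 34644862 to 35806402 counts, and 12810 genes were tested. KO replicates 2 and 3 differed more (chi-square of counts over its degrees of freedom 6.94) than WT-labelled pairs did (3.22 to 3.26). Usf3, the targeted gene, was at 72.2 ± 1.81 CPM (counts scaled to a common library size) in WT-labelled and 68.5 ± 3.18 in KO-labelled libraries, and did not pass the test (edgeR adjusted p = 0.261). The labels do not give the floxed exons, so this whole-gene count is no check of them. The T cell receptor complex gene Cd3e stood at 346 ± 4.05 and 328 ± 4.56 CPM and was lower (edgeR adjusted p = 0.0364). Of 10 tested genes listed as γδ T cell markers, 4 were lower and 1 (Cd44) higher, beside 10.1% and 7.23% of all tested genes. The 4 were Cd3d, Cd3e and Cd3g, at 0.921-, 0.949- and 0.889-fold, and Blk, at 0.450-fold. Trdc, Tcrg-C1, Tcrg-C2, Tcrg-C4, Trdv4 and Trgv2 had no row under these symbols, so the γδ TCR genes were not analysed here. Summed over 9 monocyte and macrophage markers the level was 8.04 to 10.9 CPM in WT-labelled and 7.26 to 7.51 in KO-labelled libraries, most of it Cd68, then Vcan. The defining markers were near 0: Csf1r had 1, 0 and 4 counts in WT replicates 1 to 3 and 0 in every KO-labelled library, and Adgre1 had 1 count in KO replicate 1 and 0 elsewhere. Summed B cell markers (10 genes, led by Cd79b and Fcer2a) were at 6.77 to 7.27 and 5.92 to 7.85 CPM, neutrophil and mast cell markers (6 genes, led by Mcpt8 and Cpa3) at 1.63 to 2.24 and 1.68 to 2.13, and erythroid and platelet markers (5 genes, led by Itga2b and Pf4) at 0.920 to 1.01 and 1.28 to 1.73. NK and innate lymphoid markers (7 genes, led by Klrb1c and Kit) were at 94.6 to 102 and 93.6 to 99.3 CPM. Those of dendritic cells (5 genes, led by Bst2, which interferon also induces, and Batf3) were at 97.7 to 101 and 65.2 to 77.6 CPM. Bst2, Batf3 and Itgax were lower, and Zbtb46 (0.624 and 0.823 CPM) did not pass. Flt3 was not tested, with 0, 1 and 0 counts in WT replicates 1 to 3 and 0, 8 and 0 in KO replicates 1 to 3. Siglech, Clec9a and Cd209a of the dendritic cell list had no row under these symbols. Of the αβ T cell markers, Trac, Trbc1 and Trbc2 had no row under these symbols. The 4 with a row (led by Cd8a and Cd8b1) were at 95.5 to 98.2 and 112 to 116 CPM. Of these 4, Cd8a rose from 66.1 to 86.9 CPM (edgeR adjusted p = 7.51e-08) and Foxp3 fell from 12.3 to 8.31 CPM (adjusted p = 0.000181). Cd8b1 (18.1 and 17.8 CPM) and Cd4 (0.522 and 0.463 CPM) did not pass.

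The comparison of KO-labelled with WT-labelled cells asks how the receptor transcripts stand where Usf3 is floxed in the presence of CD2-cre. Of the 8 tested receptor genes, 4 passed at a Benjamini-Hochberg adjusted p under 0.05 (edgeR quasi-likelihood), 3 higher and 1 lower. Over all 12810 tested genes, 17.3% passed, 7.23% higher and 10.1% lower. The median log2 fold change of the 8 genes was 0.038, beside 0.0014 over all tested genes. Of the 8 tested genes, Cxcr3, Ccr8 and Cxcr6 had no overlap in CPM between labels, beside 32.1% of all tested genes. Ccr8 and Cxcr6 lay above (15.5% of all genes) and Cxcr3 below (16.7%). Passing the test and not overlapping draw on the same counts, so the second is no separate support. In bulk RNA, fewer cells that express a receptor and less of its RNA per cell cannot be told apart, in either direction.

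Cxcr3 marks type 1 lymphocytes, and its expression is known to depend on T-bet. It had 2649, 2399 and 2505 counts in WT replicates 1 to 3, or 74.4, 69.0 and 71.3 CPM. In KO replicates 1 to 3 it had 1612, 1647 and 1650 counts, or 45.9, 46.0 and 47.5 CPM. All KO-labelled libraries lay below all WT-labelled ones, and the gap between the labels was wider than the range within either. The log2 fold change was -0.62 ± 0.044 (SE), a 0.649-fold level with a 95% interval from 0.609 to 0.692 (edgeR adjusted p = 3.18e-10, rank 92 of 12810 by p). The coefficient of variation was 3.84% in WT-labelled and 1.91% in KO-labelled libraries. Counting error gives 1.99% and 2.47%, so the WT-labelled spread was larger than counting gives. The dendritic cell marker sum above, most of it Bst2, was lower in KO-labelled libraries too. Of that list, Bst2, Batf3 and Itgax were lower, at 0.767-, 0.526- and 0.326-fold. Flt3 and Zbtb46, both at low levels, were not lower. The αβ T cell marker sum was higher through Cd8a alone, while Foxp3 of that list fell. The part of dendritic and αβ T cells in this result was not tested.

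Ccr8 is known as a receptor of skin-homing and type 2 T cells. It had 14, 25 and 15 counts in WT replicates 1 to 3 (0.393, 0.719 and 0.427 CPM) and 53, 66 and 58 in KO replicates 1 to 3 (1.51, 1.84 and 1.67 CPM). The lowest KO-labelled library, at 53 counts, lay well above the highest WT-labelled one, at 25. The log2 fold change was 1.70 ± 0.342 (SE), a 3.25-fold rise with a 95% interval from 1.99 to 5.31 (edgeR adjusted p = 0.000870), rank 55 of 12810 by absolute log2 fold change. With a mean of 18.0 counts in WT-labelled libraries, the relative SD expected from counting error was 23.6%, and 34.9% was measured, so the size of the rise is known only within a wide range. The summed erythroid and platelet markers, at a similar level, were also higher in KO-labelled libraries; their part in this result was not tested.

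Cxcr6 is a receptor of resident and effector lymphocytes. It had 7382, 6917 and 7412 counts in WT replicates 1 to 3 and 7661, 8136 and 7951 in KO replicates 1 to 3. On the CPM scale the values were 207, 199 and 211 against 218, 227 and 229. The labels did not overlap, though the highest WT-labelled and lowest KO-labelled libraries lay close together. The log2 fold change was 0.13 ± 0.030 (SE), a rise of 9.18% with a 95% interval from 4.54% to 14.0% (edgeR adjusted p = 0.00423).

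Ccr2 had 26530, 25367 and 27286 counts in WT replicates 1 to 3 and 29249, 30332 and 26172 in KO replicates 1 to 3, or 746, 729 and 776 against 832, 847 and 753 CPM. KO replicates 1 and 2 lay above all WT-labelled libraries, while KO replicate 3 lay between them. The log2 fold change was 0.11 ± 0.033 (SE), a rise of 8.04% with a 95% interval from 3.10% to 13.2% (edgeR adjusted p = 0.0187). The call was lost by DESeq2 (adjusted p = 0.195), in a robust fit (0.238), by limma on log2 FPKM, and without WT replicate 1 or 2 or KO replicate 1 or 2 (adjusted p from 0.0685 to 0.137). Monocytes also express Ccr2; their defining markers Csf1r and Adgre1 were at or near 0 counts, as given above, and their part in this result was not tested. Of the 50-base stretches of its GENCODE transcripts, 1.91% also occurred in transcripts of other genes. None of the GENCODE exon bases of Cxcr3, Ccr8, Cxcr6 and Ccr2 overlap an exon of another gene.

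**Figure D2:**
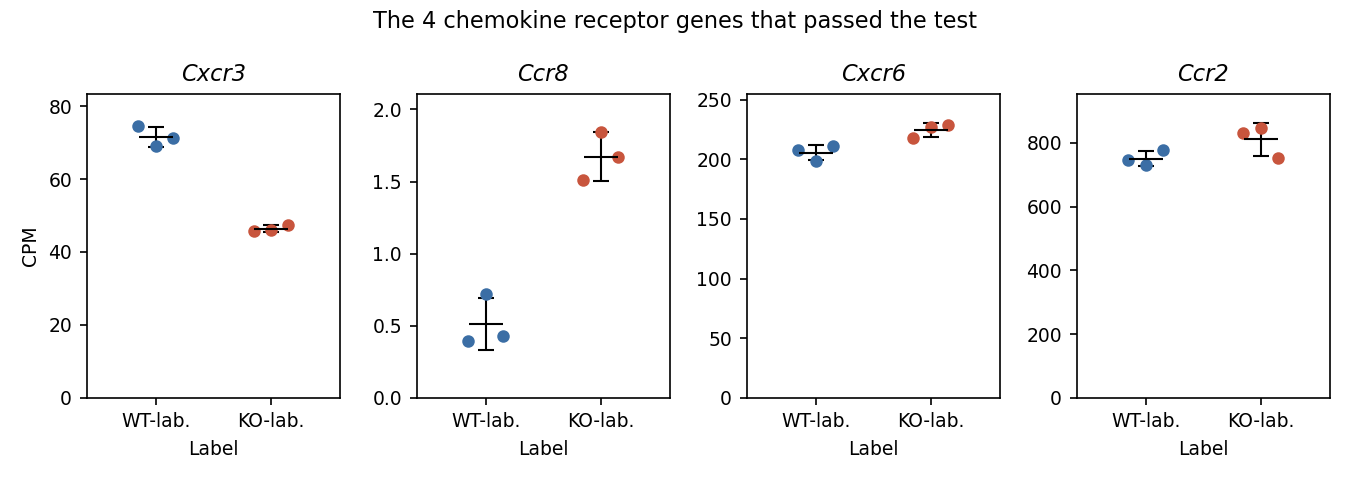
CPM per library (points) with mean and SD (bars, n = 3 each) for the receptor genes that passed the test, each on its own axis from 0. Cxcr3 is lower in KO-labelled libraries, Ccr8 and Cxcr6 are higher in all 3, and for Ccr2 KO replicate 3 lies inside the WT range.

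Cxcr4, which retains lymphocytes in CXCL12-rich niches, had 620, 619 and 656 counts in WT replicates 1 to 3 and 573, 634 and 645 in KO replicates 1 to 3. The groups overlapped, and the change of -2.46% had a 95% interval from -12.4% to 8.58% (edgeR adjusted p = 0.806). Ccr4 had 344, 326 and 316 counts against 322, 325 and 303, which also overlapped. Its change of -3.84% had an interval from -16.6% to 10.8% (edgeR adjusted p = 0.765). For both genes the interval leaves out a change as large as that of Cxcr3.

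The low receptors allow less. Cx3cr1, known from cytotoxic effector T cells and monocytes, had 33, 21 and 33 counts in WT replicates 1 to 3 and 54, 29 and 52 in KO replicates 1 to 3. KO replicates 1 and 3 were the highest of the 6, and KO replicate 2 was between the WT-labelled ones. The log2 fold change of 0.63 ± 0.348 (SE) had an edgeR adjusted p of 0.245 and did not pass; the fold interval ran from 0.941 to 2.56.

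Cxcr5 had 14, 10 and 10 counts in WT replicates 1 to 3 and 12, 9 and 12 in KO replicates 1 to 3, which overlapped. The fold interval from 0.481 to 1.96 (edgeR adjusted p = 0.969) shows how little this depth can resolve. Of its GENCODE exon bases, 3.30% overlap Bcl9l on the opposite strand, a gene at 74.6 CPM in WT-labelled libraries; no source used here says whether the counts used strand.

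Ccr9 had 0, 0 and 5 counts in WT replicates 1 to 3 and 1, 3 and 4 in KO replicates 1 to 3. A count of 0 allows up to 3 counts, or 0.0843 and 0.0863 CPM in WT replicates 1 and 2. By exact permutation (two-sided, on log2(CPM + 0.1)) p was 0.6, with 0.1 the smallest that this design allows. Of its GENCODE exon bases 21.5% are shared with other annotated genes, so even these few counts are uncertain.

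**Figure D3:**
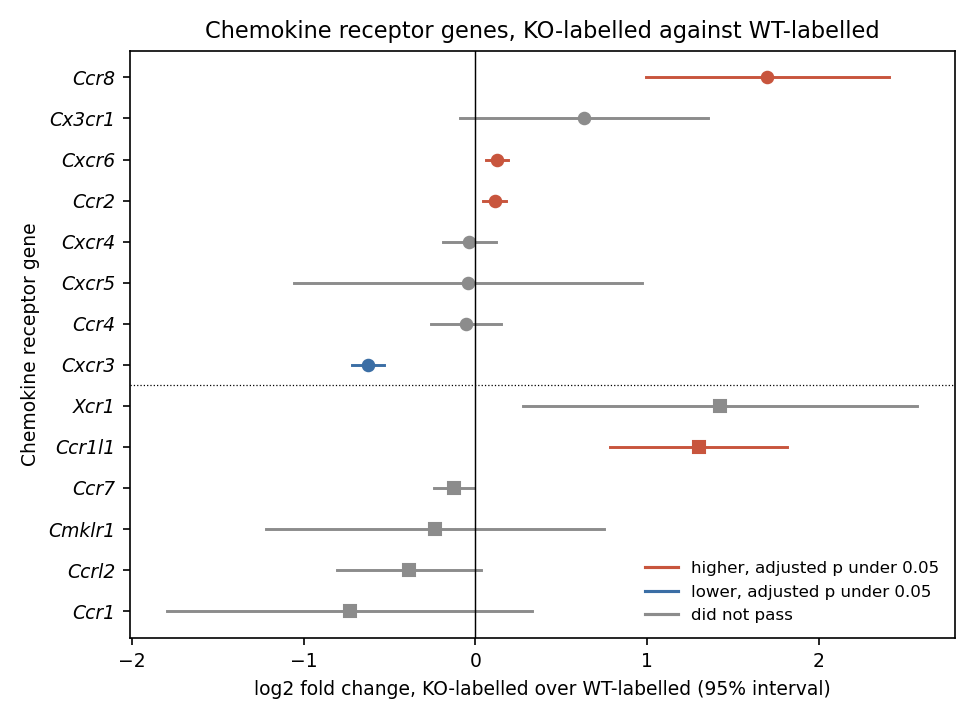
Log2 fold change of KO-labelled over WT-labelled libraries with 95% intervals, for the 8 tested genes of the receptor set (circles, above the dotted line) and 6 other tested chemokine receptor genes (squares). Ccr8 and Ccr1l1 lie to the right of 0, Cxcr3 to the left, and Cxcr4 and Ccr4 have short intervals around 0.

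Ratios between receptors within a library do not depend on how libraries are scaled. They use the same counts as the tests above. Ratios over Cxcr3 carry its fall, and Ccr8 over Ccr4 carries the rise of Ccr8, so these ratios are no separate support for those changes. Cxcr6 stood at 2.37, 2.45 and 2.51 times the FPKM of Cxcr3 in WT replicates 1 to 3 and at 4.04, 4.20 and 4.10 times in KO replicates 1 to 3. The KO mean was 1.68 times the WT mean, with no overlap. Ccr2 over Cxcr3 went from 3.57 ± 0.151 to 5.95 ± 0.478 (SD, n = 3 each), also without overlap. Cxcr4 over Cxcr3 went from 0.141 ± 0.00843 to 0.211 ± 0.0106, and Ccr8 over Ccr4 from 0.192 ± 0.0669 to 0.652 ± 0.0690. Ccr2 over Cxcr6, by contrast, was 1.46 ± 0.0188 and 1.45 ± 0.113, with the KO-labelled libraries on both sides of the WT-labelled ones. In two-sided exact permutation tests of the log2 ratio, p was 0.1 for the 4 that did not overlap, the smallest that 3 against 3 allow, and 1 for Ccr2 over Cxcr6. Over the 5 ratios computed, the Benjamini-Hochberg adjusted values were 0.125 and 1.

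**Figure D4:**
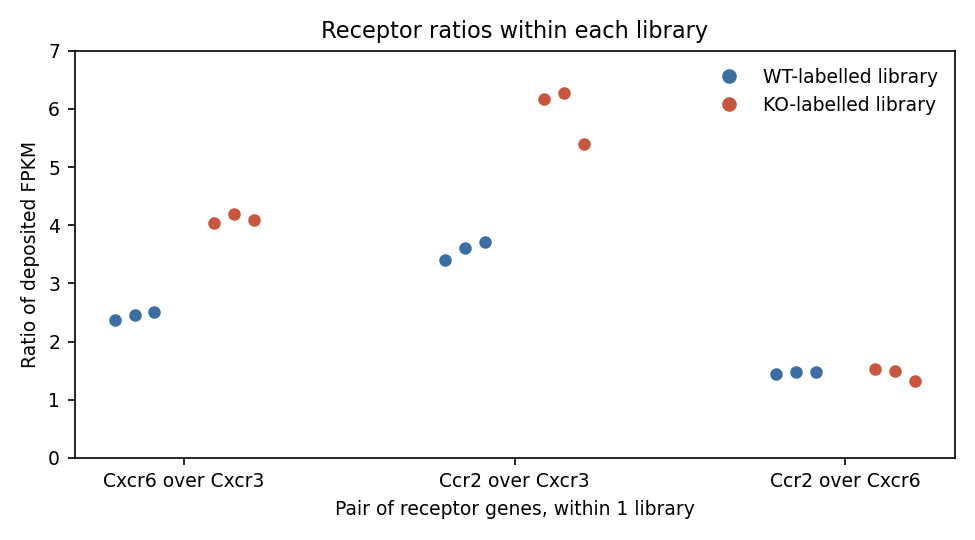
Ratio of deposited FPKM between pairs of receptor genes within each library (1 point per library, axis from 0). The ratios to Cxcr3 are higher in all KO-labelled libraries, and Ccr2 over Cxcr6 lies between 1.44 and 1.47 in WT-labelled libraries, with KO-labelled libraries at 1.53, 1.49 and 1.32.

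Among the 6 libraries, the genes most like Cxcr3 by Pearson's r of log2 CPM were Egr2 (0.9995), Ifitm1 (0.998) and Gramd2b (0.998), out of 10413 genes with a mean of at least 2 CPM. Egr2, a transcription factor gene induced by TCR signalling, went from 30.9 to 17.1 CPM, Ifitm1, an interferon-induced membrane protein gene, from 1156 to 834, and Gramd2b from 117 to 87.0. All 3 were lower in every KO-labelled library, as Cxcr3 was, and 84 genes had an r of at least 0.99; the points share the difference between labels.

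The other chemokine receptor genes described here were 15, of which 6 were tested. Ccr1l1 was the one that passed, as higher, beside 7.23% higher and 10.1% lower of all tested genes. The median log2 fold change of the 6 was -0.18. Ccr1l1, a receptor gene closely related to Ccr1, had 41, 37 and 38 counts in WT replicates 1 to 3 and 86, 107 and 94 in KO replicates 1 to 3, and rose by 1.30 ± 0.248 (SE, edgeR adjusted p = 0.000524). Xcr1, the receptor gene for XCL1, had 18, 1 and 11 counts against 37, 15 and 29, which overlapped (edgeR adjusted p = 0.0834). Xcr1 passed without KO replicate 2 (adjusted p = 0.0216) and with no filter on low counts (0.0311), and its adjusted p over 15 alternatives ran from 0.0216 to 0.315. Ccr7, the receptor for entry into lymph nodes, was at 38.0 ± 1.05 and 34.9 ± 2.12 CPM, with no overlap, and did not pass (edgeR adjusted p = 0.139). Ccrl2, which encodes an atypical receptor, was at 3.07 ± 0.170 and 2.35 ± 0.331 CPM and did not pass either (adjusted p = 0.218).

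By start coordinate of RefSeq protein-coding genes in GRCm38.p6, Ccr9, Cxcr6, Xcr1, Ccr1, Ccr1l1, Ccr3 and Ccr2 come in this order on mouse chromosome 9. The start coordinate of Fyco1 falls between those of Ccr9 and Cxcr6. Gene ends were not compared, so overlap between genes is not described by this order. Altogether 7 of the 9 receptor genes lie on that chromosome, among them the direct neighbours Cx3cr1 and Ccr8. Of 29 distinct tested genes, at most 2 to each side, next to a receptor gene, 3 were higher and 4 lower, beside 7.23% and 10.1% of all tested genes. The 3 higher were Ccr1l1, Rpsa and Rps25, with log2 fold changes of 1.30, 0.073 and 0.087; the ribosomal protein genes Rpsa and Rps25 belong to families with many near-identical copies, so their counts are uncertain. The 4 lower were Tmppe, Csrnp1, Ogt and Mcm6, between -0.22 and -0.096.

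Of the 15 ligand genes for these receptors, 3 were tested. Of these, 1 was higher and 1 lower, beside 7.23% higher and 10.1% lower of all tested genes. Ccl1, whose product acts on CCR8, had 70, 42 and 67 counts in WT replicates 1 to 3 and 184, 162 and 193 in KO replicates 1 to 3, a rise of 1.59 ± 0.205 on the log2 scale (SE, edgeR adjusted p = 3.77e-06). Ccl1 and Ccr8 were both higher in all KO-labelled libraries, as were 15.5% of all tested genes. Both were at low levels, and a link between them was not tested. Cxcl10, a ligand of CXCR3, was at 8.59 ± 0.978 and 6.72 ± 0.791 CPM with overlapping groups. It was lower at an adjusted p of 0.0498 and lost that call in 14 of 18 alternatives, among them DESeq2 (0.0661) and the fits without WT replicate 1 or 2 or KO replicate 2 or 3 (0.102 to 0.230). The third tested ligand gene, Ccl25, did not pass.

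Genes that carry the signal from the receptors were lower in 7 of 24 tested and higher in 3, beside 10.1% lower and 7.23% higher of all tested genes, with a median of -0.033. Tiam1, which activates the GTPase Rac, rose by 0.57 ± 0.052 (SE). Gng2, a G protein γ subunit gene, fell by 0.28, Prex1, another activator of Rac, by 0.17, and the kinase gene Jak3 by 0.13. Their adjusted p ran from 2.07e-08 for Tiam1 to 0.000849 for Jak3 (edgeR).

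Genes that desensitise or recycle receptors were lower in 5 of 18 tested and higher in 4, beside 10.1% lower and 7.23% higher of all tested genes, with a median of -0.0097. Rgs16, which speeds the shut-off of Gi proteins, went from 33.8 ± 1.24 to 69.7 ± 0.370 CPM (SD, n = 3 each), a rise of 1.05 ± 0.046 (SE, edgeR adjusted p = 8.48e-14). Rgs10, of the same family, rose by 0.38. Arrb1, which encodes β-arrestin 1 and uncouples receptors from G proteins, fell by 0.31, a call lost on log2(FPKM + 1) without the mean filter (adjusted p = 0.0914), and Sh3bp5, a Rab11 regulator gene, by 0.36. Their adjusted p ran from 8.99e-05 to 0.000364.

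Transcription factors tied to these receptors in T cells were lower in 10 of 25 tested and higher in 3, beside 10.1% lower and 7.23% higher of all tested genes, with a median of -0.11. Eomes rose by 0.70 ± 0.024 (SE) and Ets1 by 0.30 ± 0.024, while Tcf7 fell by 0.32 and Rora by 0.63, with adjusted p from 6.79e-16 to 4.13e-08 (edgeR). Tbx21, which encodes T-bet, was chosen after its value was seen. It went from 46.9 ± 2.16 to 33.0 ± 1.34 CPM, a log2 fold change of -0.51 ± 0.053 (SE). All its KO-labelled libraries lay below all WT-labelled ones, as for Cxcr3 and for 16.7% of all tested genes. A link between Tbx21 and Cxcr3 was not tested.

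**Figure D5:**
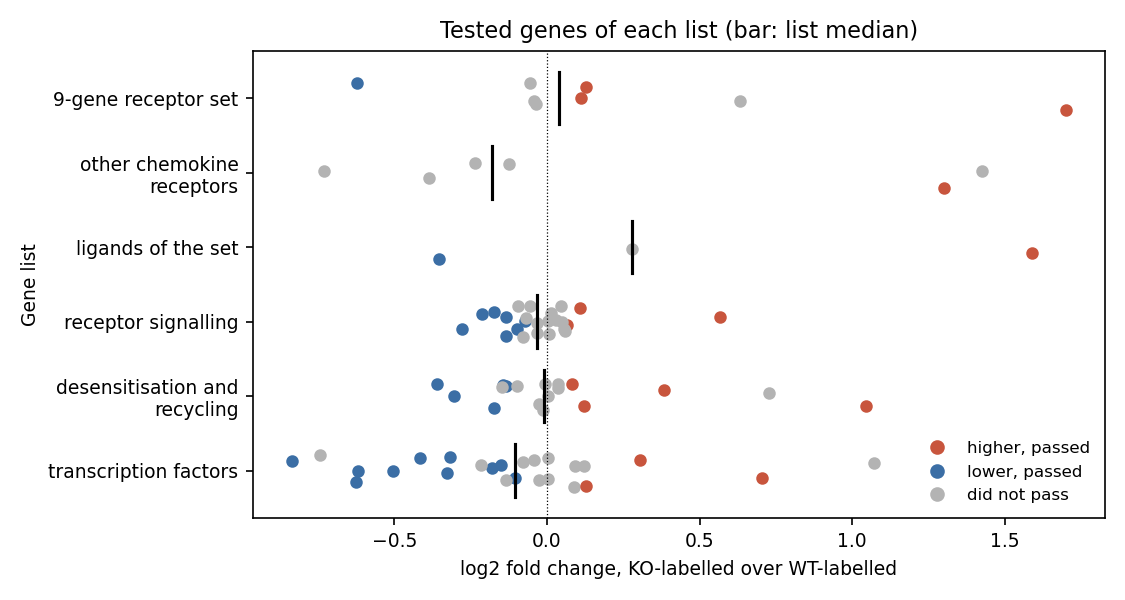
Log2 fold change of KO-labelled over WT-labelled libraries for every tested gene of 6 lists (1 point per gene, coloured by the test, vertical bar at the list median). The receptor genes and their ligands spread widest to the right, up to Ccr8 at 1.70, and the list medians lie between -0.18 and 0.28.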

How the data were processed

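The 9 genes and the gene lists were chosen with earlier results of these data known. The deposited gene counts are whole numbers without further normalization, and the authors' FPKM equal these counts over the column total and 1 fixed length per gene in all 19390 rows (tolerance 0.01 bp). Per the submitters' processing notes, fastp, HISAT2, HTSeq and GRCm39 were used; no version, role, annotation or strand setting is stated there. Columns were matched by title (0 columns were left over).

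The test was edgeR 4.0.16 under R 4.3.3 (TMM, filterByExpr, glmQLFit and glmQLFTest on the label), with Benjamini-Hochberg adjustment over 12810 genes and a threshold of 0.05. CPM use the TMM-scaled totals; each SE is the size of the log2 fold change divided by √F. Counting error assumes independent reads. Named genes were all 9 receptor genes, up to 4 passing genes by p from each list (2 where fewer than 2 passed), Ccr7 and the 2 most abundant other receptors, the 2 most abundant genes of each other-cell list, and the 3 genes most like Cxcr3; 1 gene is not reported here. Alternatives were other scalings, DESeq2 1.42.0, limma 3.58.1 (voom, and trend after adding 0.1 or 1 to FPKM), filters, a robust fit, a stricter threshold, a replicate block and each library left out. On simulated counts for KO against WT (12668 genes tested), 49.2% of genes changed 1.2-fold, 85.1% changed 1.5-fold and 80.3% changed 2-fold were recovered with 0 wrong signs, and 7 of 150 calls were false. Promoters, gene order and exon overlaps are from GRCm38.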

Additional observations from a re-analysis of the deposited data

How the results depend on the processing

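Cxcr3 stayed lower and past the threshold in all 18 alternatives (log2 fold change -0.65 to -0.59), and Ccr8 stayed higher and past it in all 16 that tested it (0.77 to 2.02; the lowest value is on the log2(FPKM + 1) scale). Cxcr6 lost its call only under log2(FPKM + 1) without the mean filter (adjusted p = 0.0528). Ccr2 kept its call in 9 of 18, with values from 0.079 to 0.16. Cxcr4, Ccr4, Cxcr5 and Cx3cr1 did not pass in any alternative that tested them. On log2 FPKM with pseudocounts of 0.1 or 1 and a mean FPKM of at least 1, 1 receptor gene was called higher in place of 3: Ccr8, under that mean, was not tested, and for Ccr2 the cause was not tested. Without the mean filter the count was also 1, and 1293 genes in place of 2219 were called in all. The stricter threshold, an adjusted p under 0.01, was not counted among the 18 alternatives. At it 1383 genes were called, with Cxcr3, Ccr8 and Cxcr6 but not Ccr2 or Cxcl10 among them. Leaving out 1 library gave 2 or 3 receptor genes higher, 1 lower, and 1660 to 2256 genes in all. Upper-quartile scaling gave 1091 genes higher and 1214 lower, in place of 926 and 1293. The order of levels was the same in all 18 positions with CPM per kilobase. The numbers in the titles are not said to pair libraries: same-numbered libraries had correlations of deviations of 0.054, -0.028 and -0.045, and with the number as a replicate block 1969 genes, 3 receptor genes higher and 1 lower were called. Under that block Xcr1 passed as well (adjusted p = 0.0449). Ccr8, Cx3cr1, Cxcr5 and Ccr9 had means under 60 counts per label. The coefficient of variation of Cx3cr1 in KO-labelled libraries (31.9%) and of Ccr8 in WT-labelled ones (34.9%) was larger than counting gives (14.9% and 23.6%). The same held for abundant genes. Ccr2 had 3.18% in WT-labelled and 6.25% in KO-labelled libraries, where counting gives 0.616% and 0.591%. Cxcr6 had 3.00% and 2.59%, where counting gives 1.18% and 1.12%.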
